A study of Rattus norvegicus with 22 samples.

Results

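The genes described here are those of the RT1 complex, the major histocompatibility complex of the rat, with the genes whose products its molecules need to present peptides. Each symbol in the count table that starts with RT1- was taken, and B2m, Tap1, Tap2, Tapbp, Cd74, Ciita and Nlrc5 were added, which gave 38 of the 32883 genes in the table (31 RT1 symbols and 7 further genes). The RT1-B and RT1-D genes, Cd74 and Ciita were counted as class II (11 genes). The remaining RT1 genes with B2m, Tap1, Tap2, Tapbp and Nlrc5 were counted as the class I side (26 genes), and RT1-Ha, which was put in neither class, had 0 counts in each library.

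Class I molecules consist of a heavy chain and beta-2-microglobulin, the product of B2m, and they hold peptides that the proteasome cuts from proteins inside the cell, that Tap1 and Tap2 carry into the endoplasmic reticulum and that tapasin, the product of Tapbp, helps to load. Class II molecules consist of an alpha and a beta chain, are chaperoned by the invariant chain Cd74 and receive peptides from taken-up proteins with the help of the DM proteins, and Nlrc5 and Ciita are the coactivators through which the class I and the class II genes are transcribed. In the healthy central nervous system class II is found mainly on macrophages and dendritic cells of the meninges and the perivascular spaces and on a small share of microglia.

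The series measured RNA from the ventral cervical spinal cord (C3-C6) of Sprague-Dawley rats aged 3 to 4 months, an outbred stock, each library coming from a separate rat. Castrated males (GDX, 5 rats) and ovariectomized females (OVX, 6 rats) had lost their gonads 2 weeks before the tissue was taken, and intact males (5 rats) and intact females (6 rats) of matched age were their controls. The published methods describe no sham operation for the controls. As described, surgery with its anaesthetic and analgesic cannot be told apart from the loss of the gonads. All rats were perfused with saline. Rats are named below by group and number, as on the labels.

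The study gives an average input fragment size for each library, and these sizes fall into a short and a long class. The 7 long libraries all came from intact rats (males 1, 3 and 6 and females 2, 3, 5 and 6), while all 5 GDX and all 6 OVX libraries were short, as were those of intact males 2 and 5 and intact females 1 and 4. Library class and gonadectomy are therefore confounded in part, and the fits with library class as a term are given below for the members where they moved a result.

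Levels are in CPM, counts scaled to library size with factors over the 22 rats, and differences are log2 fold changes with their standard errors from edgeR quasi-likelihood fits. A gene was called where its p, adjusted over all genes tested in the comparison, was under 0.1. Levels are compared between rats. Gene lengths were not available, so where a gene is said to add most to a sum, this is its part of the scaled counts and not a level corrected for length. Markers of the tissue were present in all groups: mean levels in intact and GDX males and in intact and OVX females were 43.1, 35.8, 46.4 and 35.1 CPM for Chat and 224, 213, 282 and 217 CPM for Prph, both genes of motor neurons. They were 13.4, 11.3, 12.6 and 12.4 CPM for Hoxc4, a gene of cervical position. Hoxa5, a further gene of that position, had 0 counts in all rats.

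By the RefSeq genes, 34 of the 38 members lie on chromosome 20, with B2m on chromosome 3, Ciita on 10, Cd74 on 18 and Nlrc5 on 19. On chromosome 20 RT1-N2, RT1-S2, RT1-N3, RT1-S3, RT1-T24-4, RT1-T24-3 and RT1-T24-1 follow each other with 0 to 5 other genes between neighbours. RT1-Da, RT1-Db2, RT1-Db1, RT1-Ba, RT1-Bb, RT1-DOb and Tap2 form another run with at most 1 other gene between neighbours, and RT1-A2, RT1-A1 and Tapbp lie near the end of the complex.

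Promoters from RefSeq (build GRCr8, 250 bases before the start of the gene) were found for 32 of the 38 members and are shown for the 6 genes whose levels the results turn on. They are printed on the plus strand of chr3:129549080-129549329, chr20:2675278-2675527, chr20:2722875-2723124, chr20:4872621-4872870, chr20:4515165-4515414 and chr20:4576807-4577056. Capitals mark matches, on either strand, to the Y box (CTGATTGG), the interferon response core (TTTCNNTTT) and 2 spellings of a kappa B site (GGGANTTCC and GGGGATTCC).
B2m: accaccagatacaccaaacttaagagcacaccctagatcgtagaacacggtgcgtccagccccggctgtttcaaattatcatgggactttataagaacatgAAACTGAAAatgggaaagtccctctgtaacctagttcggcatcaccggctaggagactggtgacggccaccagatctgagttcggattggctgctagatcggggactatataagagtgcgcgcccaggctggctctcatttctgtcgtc
RT1-S3: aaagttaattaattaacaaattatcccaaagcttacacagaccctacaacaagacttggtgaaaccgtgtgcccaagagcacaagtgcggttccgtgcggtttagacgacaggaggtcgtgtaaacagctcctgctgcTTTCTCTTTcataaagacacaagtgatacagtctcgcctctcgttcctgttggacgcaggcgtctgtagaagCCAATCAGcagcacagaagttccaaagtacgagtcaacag
RT1-T24-3: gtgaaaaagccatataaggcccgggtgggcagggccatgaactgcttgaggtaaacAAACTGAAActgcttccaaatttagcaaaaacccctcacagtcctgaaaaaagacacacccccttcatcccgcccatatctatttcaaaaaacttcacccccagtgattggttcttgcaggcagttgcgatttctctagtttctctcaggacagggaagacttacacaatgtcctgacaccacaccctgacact
RT1-A2: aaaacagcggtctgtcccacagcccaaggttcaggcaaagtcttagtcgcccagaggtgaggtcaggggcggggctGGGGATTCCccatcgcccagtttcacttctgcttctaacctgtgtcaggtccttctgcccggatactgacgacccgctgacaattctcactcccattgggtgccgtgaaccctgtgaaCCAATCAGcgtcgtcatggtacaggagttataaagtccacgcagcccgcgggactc
RT1-Da: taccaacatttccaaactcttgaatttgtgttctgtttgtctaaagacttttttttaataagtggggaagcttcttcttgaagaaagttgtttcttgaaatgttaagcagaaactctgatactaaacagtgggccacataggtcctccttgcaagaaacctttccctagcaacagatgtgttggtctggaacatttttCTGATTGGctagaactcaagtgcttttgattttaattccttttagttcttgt
RT1-Ba: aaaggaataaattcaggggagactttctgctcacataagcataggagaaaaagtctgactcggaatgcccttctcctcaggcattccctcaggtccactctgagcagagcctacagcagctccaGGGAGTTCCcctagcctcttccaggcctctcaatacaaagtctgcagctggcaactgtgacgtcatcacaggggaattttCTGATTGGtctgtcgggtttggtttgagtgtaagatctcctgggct

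The Y box, the letters bound by NF-Y in class II promoters, was in 11 of the 32 member promoters (34.4%) and in 3.19% of the 33469 promoters in the table. Those members were RT1-Da, RT1-Db1, RT1-Db2, RT1-Ba, RT1-Bb and RT1-DOa of class II, RT1-A2, RT1-CE4, RT1-CE5 and RT1-S3 of class I, and RT1-Ha. CCAAT alone, whose reverse complement is contained in the Y box, was in 24 members (75.0%) and in 34.0% of all promoters. The interferon response core was in 11 members (34.4%, with 10.3% of all promoters): B2m, RT1-S3, RT1-S2, RT1-N3, RT1-T24-1, RT1-T24-3, RT1-M3-1, RT1-DOa, Tap1, Tap2 and Tapbp.

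The kappa B spelling GGGGATTCC was in 5 members, RT1-A1, RT1-A2, RT1-CE3, RT1-CE4 and RT1-CE10 (15.6%, with 0.242% of all promoters), and the spelling GGGANTTCC in Cd74 and RT1-Ba (6.25%, with 1.43%). The cyclic AMP response element core TGACG was in 7 members (21.9%, with 18.2%), B2m, RT1-A2 and RT1-Ba among them. The gamma-activated site TTCNNNGAA, which reads the same on both strands, was in 1 member, RT1-M3-1 (3.12%, with 7.67%). These matches describe letters in the windows and not bound sites. Members with and without a match were not compared for their response to gonadectomy. RT1 genes are paralogs with shared sequence, so their matches are not independent of each other.

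Of the 38 members 21 had enough counts to be tested in all 6 fits, 15 on the class I side and 6 of class II. RT1-DOb was tested in 2 fits and Tap2 in 1, and the other 15 members passed the filter on low counts in none. The deposited counts do not say how reads that fit several RT1 paralogs were assigned, so a difference in 1 RT1 gene cannot be told apart from a different share of reads assigned to its neighbours, nor from alleles that differ between outbred rats. In whole tissue, fewer cells of a type and less RNA per cell cannot be told apart.

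RT1-S3, a class I gene of the run between RT1-N2 and RT1-T24-1 whose promoter is printed above with both an interferon response core and a Y box, was at 7.66, 9.27, 9.16, 6.86, 7.68 and 8.86 CPM in intact females 1 to 6 and at 14.9, 10.8, 14.4, 13.2, 12.2 and 13.7 CPM in OVX females 1 to 6. All 6 OVX females lay above the highest intact female. The gene rose by 0.68 (standard error 0.098, adjusted p 0.0376), and it had rank 1 by p among all genes tested. It was the only member called after ovariectomy, 1 of 21, in a comparison where edgeR called 0.0335% of all genes. In males the same gene was at 5.60, 10.4, 8.16, 12.8 and 8.01 CPM in the 5 intact rats and at 7.70, 8.72, 11.2, 10.6 and 10.7 CPM in the 5 GDX rats, and these groups overlapped (log2 fold change 0.11, adjusted p 0.754, 4 of 5 GDX males above the median of the controls). Intact males 2 and 5, the short-class libraries of that group, were both above the GDX mean of 9.78 CPM. Within the short class the difference in means thus ran the other way.

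The call for RT1-S3 kept its direction but not its adjusted p under 0.1 without OVX female 1 (0.161) or without OVX female 6 (0.153), where 0 of all genes were called, and it was 0.0486 with library class as a term (log2 fold change 0.86). The count of members called in this comparison was 4 with DESeq2 (RT1-S3, B2m, RT1-CE4 and RT1-T24-3), 2 with the edgeR exact test (RT1-S3 and RT1-CE4) and 2 without intact female 3, and among all genes tested these called 174, 95 and 13.

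At an unadjusted p under 0.05, 6 of 21 members were higher in OVX than in intact females, with 5.25% of all genes, and 0 were lower. All 6 were on the class I side: RT1-S3, RT1-CE4, RT1-T24-3, RT1-T24-4, RT1-N3 and B2m. RT1-N3, RT1-S3, RT1-T24-4 and RT1-T24-3 follow each other on chromosome 20. The log2 fold change was positive for 20 of 21 members (median 0.2545), where 51% of all genes tested were positive (median 0.002547). By class it was positive for 14 of 15 members on the class I side and for 6 of 6 of class II.

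RT1-T24-3, a class I gene with an interferon response core in the printed window, had a lowest, median and highest level of 0.584, 1.88 and 3.67 CPM in intact females and of 3.13, 4.00 and 4.91 CPM in OVX females. In 5 of 6 OVX females the level was above the highest intact female, but the gene was not called (0.98, standard error 0.31, adjusted p 0.283). Intact males were at 1.42, 3.11, 2.19, 4.39 and 2.82 CPM and GDX males at 0.731, 2.77, 2.84, 2.27 and 2.02 CPM. The male groups overlapped (log2 fold change -0.39, adjusted p 0.516, 4 of 5 GDX males below the median of the controls). Intact males 2 and 5, the short-class libraries of that group, were both above each GDX male.

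The neighbour RT1-T24-4 was at 4.16, 5.88 and 8.85 CPM (lowest, median, highest) in intact females and at 6.50, 8.48 and 12.7 CPM in OVX females. RT1-N3 was at 0.801, 1.14 and 1.63 CPM in intact females and at 1.36, 1.66 and 2.79 CPM in OVX females. RT1-CE4, of another class I run, was at 5.55, 6.11 and 8.41 CPM in intact females and at 7.81, 8.49 and 9.68 CPM in OVX females. Each of the 3 genes had overlapping groups, and none was called in the quasi-likelihood fit of all females. In that fit RT1-T24-4 had 0.58 (adjusted p 0.304), RT1-N3 0.63 (0.367) and RT1-CE4 0.45 (0.171). As given above, DESeq2 and the exact test called RT1-CE4. With library class as a term RT1-N3 was at 0.29 (adjusted p 0.883), and RT1-T24-3 at 1.81 (0.316).

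**Figure D1:**
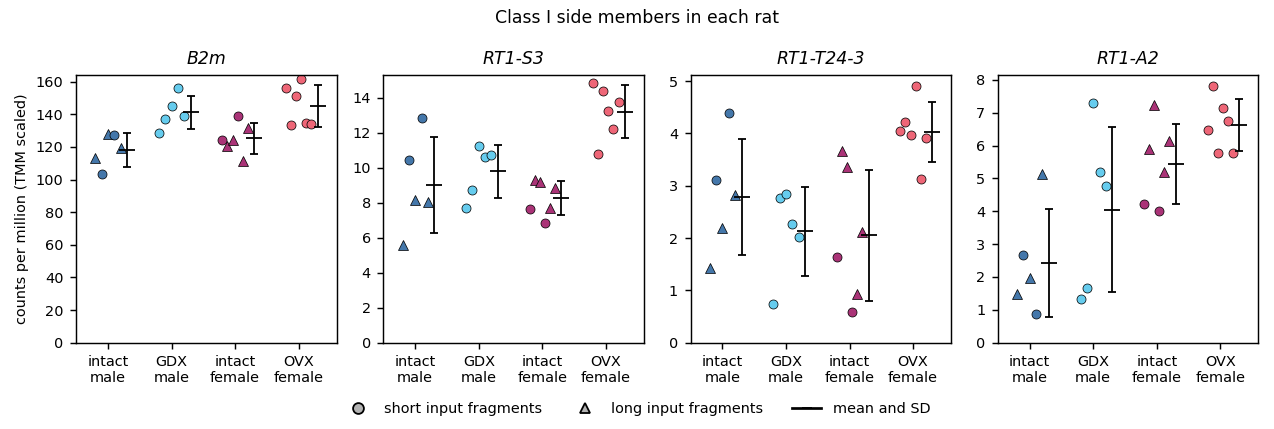
Levels (CPM) of B2m, RT1-S3, RT1-T24-3 and RT1-A2 in each rat of the 4 groups, with circles for short-class and triangles for long-class libraries and bars for the mean and SD. RT1-S3 separates OVX from intact females, and B2m separates GDX from intact males. RT1-A2 is below every intact female in 4 of 5 intact males, and also in GDX males 1 and 2.

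Summed over the 21 class I RT1 genes, the level was 54.25 CPM (SD 5.417) in intact and 57.73 (5.757) in GDX males, and 54.01 (5.162) in intact and 70.25 (7.149) in OVX females. RT1-M3-1, which added most to this sum over all rats, had means of 12.6, 11.9, 11.9 and 11.7 CPM in the same order, and in OVX females RT1-S3 added more (mean 13.2 CPM). The OVX females ranged from 58.0 to 77.2 CPM and the intact females from 47.9 to 62.9 CPM, so the sums of the female groups overlapped. Such a sum is a description with no test.

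Of 12 interferon-stimulated genes tested, 12 had a positive log2 fold change in OVX against intact females (median 0.756, with 51% of all genes positive). Of these, 11 had an unadjusted p under 0.05 (5.25% of all genes in that direction), and 1 was called (0.0335% of all genes). That gene, Bst2, which codes for tetherin, ranged from 2.98 to 4.98 CPM in intact females and from 5.77 to 7.33 CPM in OVX females and rose by 0.80 (standard error 0.13, adjusted p 0.0852, 6 of 6 OVX females above the highest intact female). Bst2 was not called without OVX female 1 or without OVX female 6, where 0 of all genes were called. It was also not called without intact female 2 or without OVX female 2, where the 1 gene called was RT1-S3. In GDX against intact males the list had 7 of 12 positive, a median of 0.05632, none called and 0 at an unadjusted p under 0.05. Over all genes in that comparison 50.5% were positive, 13.4% were called and 23.8% had an unadjusted p under 0.05. The 4 genes of the list with the smallest adjusted p in males were Gbp2 (0.34, 0.214), Irgm (0.38, 0.216), Ifi27 (-0.18, 0.276) and Ifit3 (0.47, 0.427).

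The test of the difference between the sexes in the response to gonadectomy called 0 of the 13 interferon-stimulated genes in edgeR, with 4 at an unadjusted p under 0.05, all with the smaller value in males (5.71% of all genes in that direction). In the long against the short class of intact rats, 0 of 12 of these genes had a positive log2 fold change (median -0.273, with 50.8% of all genes positive), and 2 were lower in the long class at an unadjusted p under 0.05 (592 of 15147 genes). All OVX libraries are of the short class. In OVX against intact females 3 of 14910 genes were called with library class as a term, and 7 of 15652 with short-class libraries alone. Values from these fits were taken for the members only. The part of library class in the difference of the interferon-stimulated genes was thus not tested.

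B2m, the light chain shared by all class I molecules, was at 113, 103, 128, 127 and 119.6 CPM in intact males 1, 2, 3, 5 and 6 and at 129, 137, 145, 156 and 139 CPM in GDX males 1, 2, 4, 5 and 6. All 5 GDX males lay above the highest intact male, although the nearest rats of the groups were at 128.1 and 128.6 CPM. B2m rose by 0.26 (standard error 0.064, adjusted p 0.0244), and it was the only member called after castration, 1 of 21. In this comparison 13.4% of all genes were called, so the share of members called was no larger than that of all genes. B2m was not called with short-class libraries alone (adjusted p 0.137), where 2 intact males were left.

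In females B2m was at 112, 124 and 139 CPM (lowest, median, highest) in intact rats and at 133, 143 and 162 CPM in OVX rats. The groups overlapped, with 6 of 6 OVX females above the median of the intact females, and the gene was not called in edgeR (0.22, standard error 0.059, adjusted p 0.219, and 0.14, adjusted p 0.753, with library class as a term). The estimates of the sexes differed by 0.04 (standard error 0.092, adjusted p 0.911 for the interaction), with 5 of 5 GDX males and 6 of 6 OVX females above the median of their controls.

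Among the members tested after castration, 3 were higher and 1 was lower in GDX than in intact males at an unadjusted p under 0.05, with 23.8% of all genes in either direction. Besides B2m these were Tap1 (0.38, adjusted p 0.125) and the class I heavy chain gene RT1-A1 (0.49, 0.196), both higher, and Tapbp (-0.28, 0.188), lower. Over the alternative fits Tapbp ran from -0.34 to -0.14, with its largest adjusted p (0.494) with short-class libraries alone. Log2 fold changes were positive for 17 of 21 members (median 0.1886), where 50.5% of all genes were positive (median 0.002103). By class this was 11 of 15 members of the class I side (median 0.1111) and 6 of 6 of class II (median 0.2838).

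**Figure D2:**
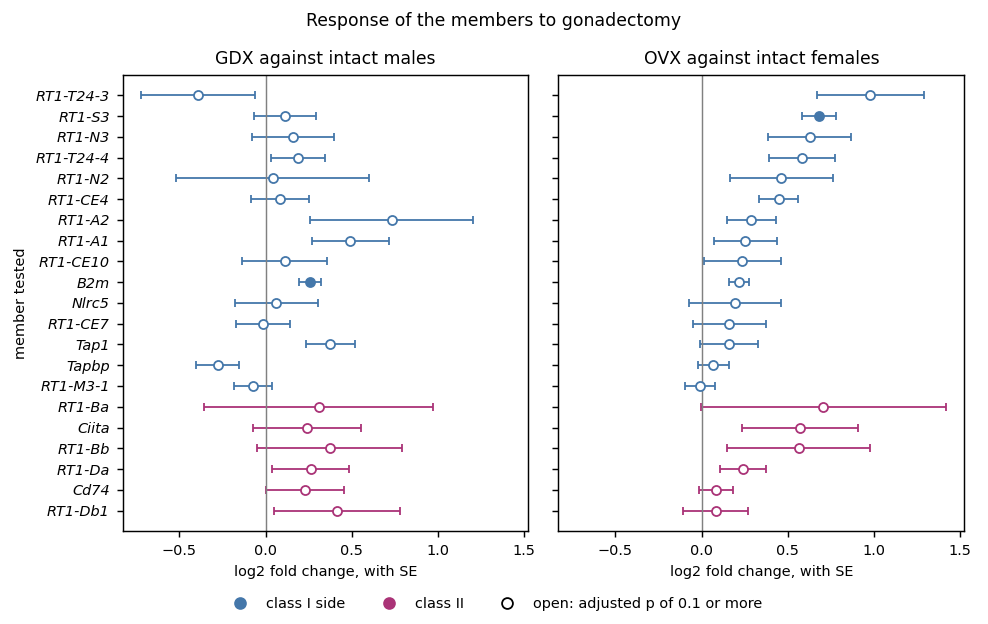
Log2 fold change with its standard error for the 21 members tested in both sexes, GDX against intact males and OVX against intact females, with the class I side in blue and class II in purple. Filled symbols mark an adjusted p under 0.1, which B2m reached in males and RT1-S3 in females.

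RT1-A2, a classical class I heavy chain gene near the end of the complex, was at 1.49, 2.67, 1.97, 0.866 and 5.12 CPM in intact males 1, 2, 3, 5 and 6. In intact females its lowest, median and highest levels were 4.01, 5.55 and 7.23 CPM. All 5 intact males lay below the median of the intact females and 4 of 5 below the lowest female, with intact male 6 inside the female range. The gene was lower in males by a log2 fold change of -1.16 (standard error 0.32, adjusted p 0.0765), and it was the only member of 21 called between the intact sexes, where 4.01% of all genes were called.

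That call was lost on leaving out any of 8 rats, with a similar difference. The adjusted p was between 0.111 and 0.186 on leaving out intact male 1, 2, 3 or 5 or intact female 2, 3, 5 or 6, and it was 0.388 with short-class libraries alone, with the log2 fold change between -1.25 and -0.94 in all of these. Without intact female 1, 2 members were called, RT1-A2 and RT1-Bb (adjusted p 0.0231), with 777 of 14789 genes called.

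After gonadectomy RT1-A2 was at 1.33, 1.68, 7.29, 5.18 and 4.76 CPM in GDX males 1, 2, 4, 5 and 6 and at 5.76, 6.60 and 7.81 CPM (lowest, median, highest) in OVX females. Of the GDX males 2 were under 2 CPM and 3 above 4 CPM, and OVX females were all above 5 CPM. It was not called in GDX against intact males (0.73, adjusted p 0.38, 3 of 5 GDX males above the median of the controls), in OVX against intact females (0.29, 0.516) or in GDX males against OVX females (-0.72, 0.485).

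At an unadjusted p under 0.05, 4 of 21 members differed between intact males and females, with 15.5% of all genes. The others were Tapbp, higher in males by 0.23 (adjusted p 0.306), and the class II pair RT1-Ba (1.52, adjusted p 0.276) and RT1-Bb (0.99, 0.239), also higher in males and described further below. With short-class libraries alone, 2 rats of each sex, these were 0.47 (adjusted p 0.826) and 0.15 (0.907). In GDX males against OVX females edgeR called 0 of 22 members, with 0.232% of all genes called. At an unadjusted p under 0.05, 5 members differed, with 9.37% of all genes, and all 5 were class I genes lower in GDX males: RT1-S3 (-0.43, adjusted p 0.224), RT1-T24-3 (-0.92, 0.273), RT1-CE4 (-0.43, 0.339), RT1-T24-4 (-0.43, 0.407) and RT1-A2. For RT1-T24-3 the highest GDX male lay below the lowest OVX female, and for the other 4 genes the groups overlapped. DESeq2 and the exact test called 2 each, RT1-S3 (adjusted p 0.0576 and 0.0671) and RT1-T24-3 (0.0328 and 0.0521), with 130 and 88 of all 15084 genes called.

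The interaction of sex and gonadectomy asks whether the response differed between males and females. In edgeR it called 0 of 23 members, with 0.116% of all genes called, and DESeq2 also called 0, with 243 of 15562 genes called. On leaving out 1 rat edgeR called between 1 gene (without GDX male 5) and 275 genes (without GDX male 1), with 0 members in each fit. With all rats in edgeR, 3 members had an unadjusted p under 0.05 (11.6% of all genes), so their share was near that of all genes. All 3 were on the class I side with the smaller value in males: RT1-T24-3 (-1.37, standard error 0.49, adjusted p 0.258), RT1-S3 (-0.56, 0.21, 0.267) and Tapbp (-0.34, 0.15, 0.392). With short-class libraries alone RT1-T24-3 was at -2.63 (adjusted p 0.215) and RT1-S3 at -1.11 (0.133), again not called. A different response of RT1-S3 in the sexes was thus not called by the test of that difference. The comparisons within each sex share no rats.

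**Figure D3:**
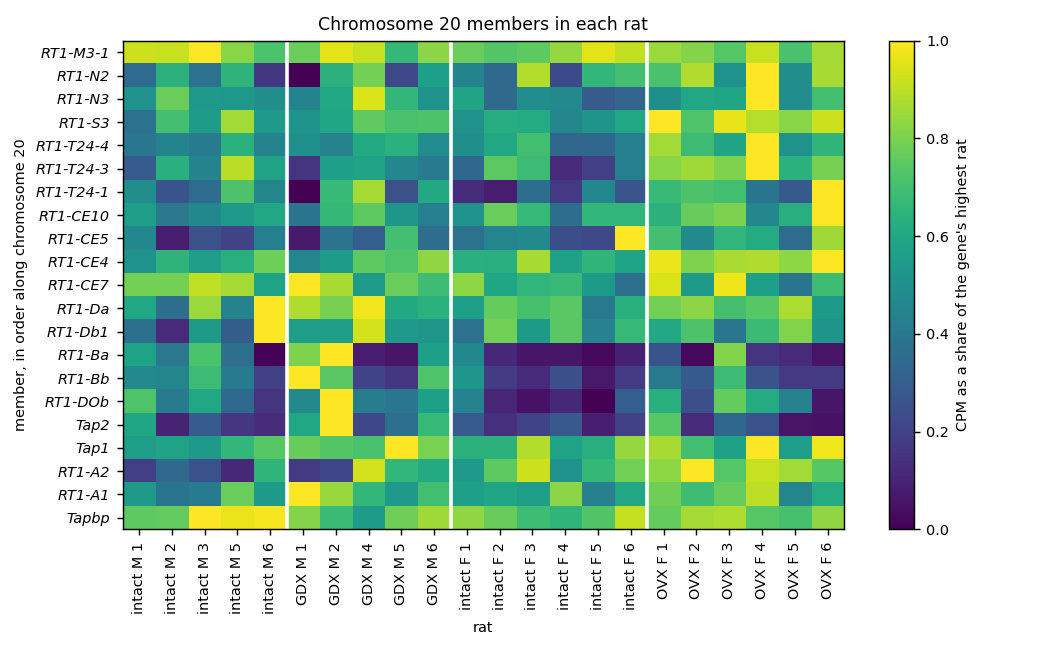
Levels of the 21 members on chromosome 20 with at least 100 counts in total, in chromosomal order from top to bottom, in each rat, with colour for the CPM as a share of the gene's highest rat. RT1-S3, RT1-T24-4 and RT1-T24-3 reach their highest level in OVX females, while RT1-Ba and RT1-Bb differ widely between rats of each group.

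Tap1, a subunit of the peptide transporter, was at 4.04, 4.15, 3.86, 4.76 and 5.32 CPM in the intact males and at 5.51, 5.26, 5.13, 7.17 and 5.74 CPM in the GDX males. In 3 of 5 GDX males the level was above the highest intact male, and the difference was not called (0.38, standard error 0.14, adjusted p 0.125). Females ranged from 4.16 to 6.36 CPM with ovaries and from 4.01 to 7.20 CPM without, a difference of 0.16 (adjusted p 0.814). Its partner Tap2 had 2 to 13 counts per library in intact males and 5 to 27 in GDX males, too few for a test in most fits.

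Nlrc5, the coactivator of class I genes, was at 1.28, 3.33, 2.57, 2.91 and 1.97 CPM in intact males and at 3.06, 2.19, 2.90, 2.34 and 2.09 CPM in GDX males. Intact females had a lowest, median and highest level of 0.73, 2.07 and 2.68 CPM and OVX females of 1.56, 2.01 and 3.46 CPM. The groups overlapped in both sexes, and no difference was called (0.06, adjusted p 0.911 in males, 0.19, adjusted p 0.875 in females).

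Of 10 other genes of class I peptide supply, 10 had a positive log2 fold change after castration (50.5% of all genes), and 3 were called (13.4% of all genes), all higher in GDX males: Erap1, which trims peptides (0.22, adjusted p 0.0617), Pdia3, of the loading complex (0.14, 0.063), and Psme1, of the proteasome activator (0.23, 0.0985). Pdia3 was higher in all 5 GDX males (167 to 189 CPM) than in any intact male (151 to 166 CPM), while Erap1 (33.6 to 40.6 against 27.3 to 33.6 CPM) and Psme1 (25.2 to 32.9 against 22.3 to 28.5 CPM) overlapped. The next by adjusted p was Psmb10 (0.16, 0.407). In females edgeR called 0 of the 10, with 1 at an unadjusted p under 0.05.

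Of 13 transcriptional regulators, 2 were called in males, Creb1 (0.30, 0.0185) and the NF-Y subunit Nfya (0.43, 0.0225), followed by Nfyb (0.20, 0.134) and Irf8 (0.18, 0.215). None was called in females (3 higher at an unadjusted p under 0.05, with 5.25% of all genes). Of 7 interferon receptors and kinases, 1 was called in males, Jak2 (0.24, 0.0273), followed by Ifnar1 (0.10, 0.257), Ifngr2 (0.15, 0.377) and Tyk2 (-0.12, 0.41), and 0 in females, with 2 higher and 2 lower at an unadjusted p under 0.05 (5.25% and 4.92% of all genes). In males 13.4% of all genes were called, so 2 of 13 regulators and 1 of 7 receptors and kinases were near the share of all genes. In Creb1, Nfya and Jak2 all 5 GDX males were above the highest intact male (15.1 to 18.0 against 13.1 to 14.3 CPM for Creb1, 12.5 to 15.3 against 8.54 to 12.4 CPM for Nfya and 32.4 to 38.5 against 28.0 to 31.6 CPM for Jak2).

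Cd74, the invariant chain of class II, was at 120.1, 65.6, 144, 76.6 and 185 CPM in intact males 1, 2, 3, 5 and 6 and at 171, 145, 156, 111 and 108 CPM in GDX males 1, 2, 4, 5 and 6. The lowest values were those of intact males 2 and 5, the 2 short-class libraries of that group, and all 3 long-class libraries lay inside or above the range of the GDX males. The difference was not called (0.23, standard error 0.22, adjusted p 0.588, 3 of 5 GDX males above the median of the controls). In females Cd74 was at 81.4, 127 and 136 CPM (lowest, median, highest) in intact rats and at 113, 127 and 145 CPM in OVX rats, again with overlap (0.08, adjusted p 0.846).

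RT1-Da, the alpha chain of a class II molecule, whose promoter is printed above with a Y box, was at 19.1, 11.5, 27.1, 14.2 and 31.8 CPM in the intact males and at 28.0, 25.3, 31.1, 19.3 and 20.4 CPM in the GDX males. RT1-Db1, a beta chain, was at 5.32, 1.70, 7.86, 4.27 and 14.4 CPM and at 8.10, 8.03, 13.4, 7.74 and 7.63 CPM. In both genes intact males 2 and 5 were the lowest of the 10 males and intact male 6 was the highest, as for Cd74. Neither gene was called (RT1-Da 0.26, adjusted p 0.523, and RT1-Db1 0.41, adjusted p 0.538).

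With library class as a term the count of members called in males was 4 in place of 1: B2m, Cd74 (0.96, adjusted p 0.0546), RT1-Da (0.95, 0.0547) and RT1-Db1 (1.56, 0.0701). Over all genes the count moved the other way, from 1995 of 14931 to 796 of 14931. With short-class libraries alone it was 3, Cd74 (0.96, 0.0857), RT1-Da (0.95, 0.0857) and RT1-Db1 (1.56, 0.0859), and these fits compare 5 GDX males with intact males 2 and 5 alone, at 65.6 and 76.6 CPM of Cd74, with 440 of 15553 genes called. Without intact male 5 the count was 2 (B2m and RT1-A1, with 1573 of 15036 genes called), and without intact male 6 it was 3 (B2m, Tap1 and RT1-Db1, with 1621 of 15059). In the long against the short class of intact rats edgeR called 0 of 21 members, with 1 of 15147 genes called. At an unadjusted p under 0.05 there were 3 members, all of class II and higher in the long class, Ciita (0.86, adjusted p 0.591), Cd74 (0.44, 0.61) and RT1-Db1 (0.74, 0.63), with 7.72% of all genes. DESeq2 called 0 members, with 58 of 15147 genes called.

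**Figure D4:**
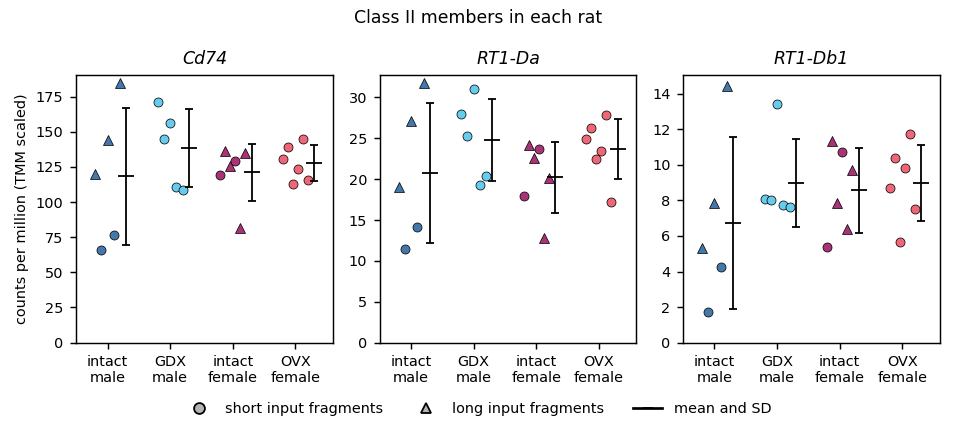
Levels (CPM) of Cd74, RT1-Da and RT1-Db1 in each rat of the 4 groups, with circles for short-class and triangles for long-class libraries and bars for the mean and SD. The intact males spread most, and their short-class libraries are the lowest.

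In females RT1-Da had a lowest, median and highest level of 12.8, 21.4 and 24.2 CPM in intact rats and of 17.3, 24.2 and 27.8 CPM in OVX rats (0.24, adjusted p 0.58). RT1-Db1 was at 5.41, 8.77 and 11.4 CPM in intact rats and at 5.69, 9.27 and 11.7 CPM in OVX rats (0.08, adjusted p 0.936). Both genes had overlapping groups. Intact female 5 had the lowest Cd74 and RT1-Da of all females, and its library was long. Summed over the 9 class II RT1 genes, to which RT1-Da added most, the level was 35.47 CPM (SD 12.29) in intact and 44.52 (8.509) in GDX males, and 32.54 (6.63) in intact and 38.74 (5.021) in OVX females. These sums were not tested.

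Cd74 and RT1-Da varied together from rat to rat. Across 22 rats, after the mean log2 level of each group was taken off, the Pearson correlation was 0.946 (permutation p 1e-05, the smallest possible with 100000 permutations within groups, and 0.0001 after adjustment over 10 pairs), and the rank correlation was 0.919 (permutation p 2e-05, adjusted 0.0002). Without the 2 most extreme rats the correlation was 0.91, within the 15 short-class libraries 0.924 and within the 7 long-class libraries 0.963.

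**Figure D5:**
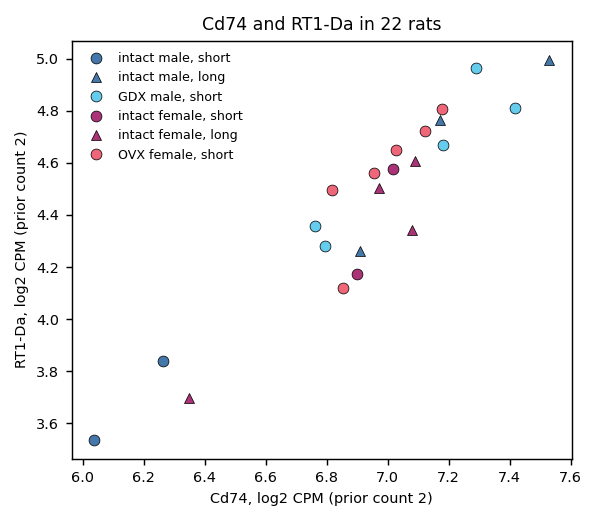
Level of RT1-Da against level of Cd74 (log2 CPM) in the 22 rats, with colour for the group and circles for short-class and triangles for long-class libraries. The rats of all 4 groups lie along a common line.

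Ciita, the coactivator of class II genes, was at 1.06, 0.96, 1.21, 0.495 and 1.51 CPM in intact males and at 1.66, 0.98, 1.48, 1.35 and 0.718 CPM in GDX males. In females it was at 0.454, 0.626 and 1.74 CPM in intact rats (lowest, median, highest) and at 0.751, 1.24 and 1.98 CPM in OVX rats. All groups overlapped (0.24, adjusted p 0.695 in males, 0.57, adjusted p 0.605 in females). Its correlation with Cd74 over the rats was 0.44 (permutation p 0.0572, adjusted 0.143) and by ranks 0.545 (permutation p 0.0155, adjusted 0.0774), so that the rank correlation alone passed 0.1.

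The following pairs had no adjusted p under 0.1 by either measure. RT1-S3 and Bst2 had a correlation of 0.521 (permutation p 0.051, adjusted 0.143, ranks 0.449 with permutation p 0.079), which was 0.288 without the 2 most extreme rats. Cd74 and Mrc1, a gene of perivascular macrophages, had -0.565 (permutation p 0.0417, adjusted 0.143, ranks -0.497 with permutation p 0.0503), and -0.311 without the 2 most extreme rats. Cd74 had 0.17 with Aif1, a gene of microglia (permutation p 0.524, adjusted 0.656, ranks 0.127 with permutation p 0.616), and 0.184 with B2m (permutation p 0.487, adjusted 0.656, ranks 0.0548 with permutation p 0.821). Within the 7 long-class and the 15 short-class libraries Cd74 had 0.542 and 0.0654 with Aif1 and 0.727 and -0.00283 with B2m. The difference between the classes was not tested. B2m had 0.279 with Tap1 (permutation p 0.258, adjusted 0.43, ranks 0.161 with permutation p 0.523) and -0.0307 with Nlrc5 (permutation p 0.9, adjusted 0.9, ranks 0.111 with permutation p 0.65). Of the 10 pairs 1 is not reported here.

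RT1-Ba, the alpha chain of the other class II molecule, whose promoter is printed above with a Y box and a kappa B match, was at 3.47, 2.37, 4.31, 2.23 and 0.0657 CPM in intact males 1, 2, 3, 5 and 6. GDX males 1, 2, 4, 5 and 6 were at 4.85, 6.01, 0.4725, 0.355 and 3.39 CPM. The males formed a set near 0 and a set above 2 CPM, and intact male 6, with the highest Cd74 of all rats, had 1 count of RT1-Ba. At least 1 CPM was reached by 4 of 5 intact males, 3 of 5 GDX males, 1 of 6 intact females (rat 1, 2.82 CPM) and 2 of 6 OVX females (rats 1 and 3, 1.56 and 4.86 CPM). The females ran from 0.124 to 4.86 CPM, with intact female 1 and OVX female 3 standing apart from the rest of their groups. Over the 22 rats its correlation with Cd74 was -0.151 (permutation p 0.631, adjusted 0.701, ranks -0.0954 with permutation p 0.705), and 0.184 without the 2 most extreme rats, so no relation was seen.

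RT1-Ba was not called after castration (0.31, standard error 0.67, adjusted p 0.83) or ovariectomy (0.71, standard error 0.71, adjusted p 0.803). The neighbouring beta chain gene RT1-Bb was at 5.03, 4.89, 7.33, 4.39 and 2.04 CPM in intact males and at 10.7, 7.97, 2.16, 1.70 and 7.76 CPM in GDX males, with the same rats low as for RT1-Ba. In females it was at 0.735, 1.88 and 5.63 CPM in intact rats (lowest, median, highest) and at 1.76, 2.89 and 7.33 CPM in OVX rats, and the highest rat of each group, intact female 1 and OVX female 3, was also the highest for RT1-Ba. Of the next gene, RT1-DOb, levels were between 0 and 1.27 CPM in all rats.

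The DM genes, which code for the exchange factor that loads class II molecules, were near 0 in most rats and high in a few. RT1-DMa had 33 counts in GDX male 5 and 24 in intact female 1 and at most 4 in all other rats. RT1-DMb had 23 counts in GDX male 1, 26 in OVX female 6, 7 in intact male 2 and at most 2 in the others. No rat was high for both, and neither gene passed the filter. RT1-Ba, RT1-DMa, RT1-DMb and RT1-Db1 differed more than 8-fold between rats of 1 group. For RT1-Db1 this was 8.479-fold in intact males. In the other 3 genes the lowest rats had fewer than 3 counts and were set to 3 counts, so the folds are lower bounds: 26.15 for RT1-Ba in OVX females, 11.76 for RT1-DMa in GDX males and 9.047 for RT1-DMb in OVX females.

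Of 7 other genes of class II peptide loading and costimulation, 7 had a positive log2 fold change in GDX against intact males. In edgeR 0 were called, with 2 at an unadjusted p under 0.05, and over all genes 50.5% were positive, 13.4% called and 23.8% under that threshold, so 2 of 7 was near the share of all genes. The 4 with the smallest adjusted p were Ctsl (0.16, 0.108), Cd40 (0.67, 0.157), Ctsb (0.04, 0.637) and Ctss (0.05, 0.673). In OVX against intact females 0 were called and 0 had an unadjusted p under 0.05.

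Markers of cells that carry class II molecules or enter with the blood and meninges also differed between the groups. After castration, with 13.4% of all genes called, 3 of 5 tested genes of perivascular macrophages rose (Stab1, Mrc1 and F13a1), as did 7 of 8 of endothelium and 8 of 8 of meninges and fibroblasts, while 0 of 7 of microglia were called (7 of 7 positive, 1 at an unadjusted p under 0.05). Of 3 tested dendritic cell genes Flt3 fell by 0.46 and Clec10a rose by 1.05, and of 2 genes of T and NK cells Gzmm rose, which was also called in the interaction. After ovariectomy, with 0.0335% of all genes called, 2 of 8 endothelial genes rose, Kdr and Cd93 (7 of 8 higher at an unadjusted p under 0.05, with 5.25% of all genes). Kdr and Cd93 were not called without OVX female 1 or without OVX female 6, where 0 of all genes were called. Nor were they called without intact female 2 or without OVX female 2, where RT1-S3 was the only gene called. In the same comparison 0 of 5 genes of perivascular macrophages were called, with 0 of 3 for dendritic cells and 0 of 8 for meninges. For microglia 0 of 7 were called, with 3 at an unadjusted p under 0.05. Among genes of resident cells, 2 of 4 of astrocytes and 1 of 5 of oligodendrocytes rose after castration, 2 of 4 of neurons and 1 of 7 of motor neurons fell, and 0 of 2 of ependyma were called. In females 0 of these were called, with 3 of 4 astrocyte genes higher and 2 of 4 neuron and 6 of 7 motor neuron genes lower in OVX rats at an unadjusted p under 0.05 (4.92% of all genes in that direction). In the long against the short class of intact rats 7 of 7 motor neuron genes were higher in the long class at that threshold (578 of 15147 genes in that direction, list median 0.3797, 0 called), and 4 of 6 intact females but 0 OVX females had long-class libraries. Values of the marker genes were not taken from the fits with library class as a term, so the part of library class in their difference was not tested. In intact males 6 of 8 genes of meninges and 3 of 5 of perivascular macrophages were lower than in intact females, with 4.01% of all genes called (383 of 14937 lower). The part of these cells in the results for RT1 genes was not tested.

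Summed levels of the marker lists are given as lowest to highest rat, in the order intact and GDX males, intact and OVX females. Perivascular macrophages were at 15.7 to 25.9, 30.2 to 44.0, 25.9 to 38.9 and 29.6 to 40.7 CPM (the gene that added most over all rats, Mrc1), and microglia at 269.8 to 297, 281 to 341, 249.8 to 278 and 271 to 304 CPM (Sall1 added most). The GDX males lay above the intact males in perivascular macrophage genes with no overlap, while Cd74 in the same rats overlapped. Dendritic cell genes were at 46.6 to 51.9, 37.5 to 41.2, 37.2 to 48.7 and 34.7 to 49.5 CPM (Flt3), and genes of T and NK cells at 13.3 to 16.9, 15.0 to 24.6, 14.2 to 19.5 and 17.2 to 22.6 CPM (Cd4, with Klrb1 at 0 in all rats). The last sum was led by Cd4 and was not taken as a measure of T and NK cells.

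Endothelial genes were at 107 to 163, 181 to 247, 118 to 218 and 185 to 272 CPM (Flt1), and genes of meninges and fibroblasts at 49.8 to 148, 133 to 448, 109 to 366 and 197 to 372 CPM (Col1a1). Genes of B cells were at 0.0619 to 0.525, 0.531 to 1.50, 0.0668 to 0.436 and 0.561 to 0.972 CPM (Pax5), and of granulocytes at 0.680 to 2.20, 1.40 to 14.5, 0.810 to 1.69 and 2.49 to 4.24 CPM (S100a9). Granulocyte genes were highest in GDX males 4 and 6 (14.5 and 9.59 CPM), and each OVX female lay above each intact female. None of these genes passed the filter in males, and in females 1 was tested, S100a9, which was not called (1.67, adjusted p 0.141). B cell genes were higher in each gonadectomized rat than in each intact rat of the same sex, at under 2 CPM in sum, a difference that was not tested.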

How the data were processed

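RNA-seq of ventral cervical cord from 22 rats was measured. The deposited gene counts were made by the authors. The labels name FastQC, TopHat2 2.0.13, Subread and edgeR on Rnor_6.0, while the published methods name another aligner. The labels and the published methods also name different library kits, and it is unclear which kit and aligner made the counts. Strand and multi-mapping settings were not given. Total counts ran from 12371756 to 17571887 per library.

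The counts were analysed with edgeR 4.0.16 in R 4.3.3: filterByExpr, TMM factors and quasi-likelihood F tests per comparison, with p adjusted by Benjamini-Hochberg over all genes tested and a threshold of 0.1. The interaction used 1 fit of all groups, and library class was tested in intact rats with sex as a term. CPM used TMM factors over all rats. The steps were tested on simulated data.

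Results were recomputed with DESeq2 1.42.0, the edgeR exact test, RLE factors, no filter, a filter at 1 CPM, library class as a term, short-class libraries alone, 1 fit of all rats, a replicate block and leaving out each rat.

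Values are given in full for members called in any comparison of groups, for B2m, Cd74, Ciita, Nlrc5, Tap1, RT1-Da and RT1-Ba, and for members differing over 8-fold within a group; from pathway lists, genes called in females or the interaction and the 4 smallest adjusted p in males are named. Other members were chosen after their values were seen. The members and lists were chosen with earlier results of these data known. Pearson and rank correlations of log2 CPM used 100000 permutations within groups.

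The 7 motifs were chosen after the data were seen and searched in RefSeq promoters (GRCr8) on both strands. RefSeq gave gene order, since no Rnor_6.0 annotation was available. Lengths and proteins were not analysed here.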

Additional observations from a re-analysis of the deposited data

Results flagged for a closer look

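The search took members tested in any of the 6 fits or differing over 8-fold within a group. The sums of class I and of class II RT1 genes were added. In each group the highest or lowest rat was compared with the others, and 16 values among 108 groups searched stood far from the rest. For normally distributed values chance places about 5% of groups here. RT1-DMa and RT1-DMb passed the filter in no fit and were searched only because of their spread within a group. The 16 values can therefore not be set against that share, and paralogs are not independent of each other.

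In class II, Cd74 was at 81.41 CPM in intact female 5, with the others at 119.1 to 136 CPM, and the same rat had the lowest sum of class II RT1 genes (20.1 CPM, others 32.33 to 38.55). OVX female 6 had the lowest sum among OVX females (28.97 CPM, others 38.15 to 42.74). RT1-Db1 was at 13.43 CPM in GDX male 4 (others 7.632 to 8.102). RT1-Ba was at 2.815 CPM in intact female 1 (others 0.1336 to 0.6921) and at 4.862 CPM in OVX female 3 (others 0.124 to 1.56), and RT1-DOb at 1.271 CPM in GDX male 2 (others 0.4969 to 0.7175).

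RT1-DMa was at 2.342 CPM in GDX male 5 (others 0 to 0.135) and at 1.351 CPM in intact female 1 (others 0 to 0.2076). RT1-DMb was at 0.5185 CPM in intact male 2 (others 0 to 0.0709), 1.527 CPM in GDX male 1 (others 0 to 0.07098), 0.1459 CPM in intact female 4 (2 counts with 0 in the others, which the rule picks out by construction) and 2.03 CPM in OVX female 6 (others 0 to 0.06198). In class I, RT1-T24-4 was at 8.105 CPM in intact male 5 (others 4.963 to 5.703), RT1-CE4 at 8.411 CPM in intact female 3 (others 5.545 to 6.344) and RT1-N3 at 2.148 CPM in intact male 2 (others 1.379 to 1.512). The cause was not tested for any of these.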

How the results depend on the processing

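B2m in GDX against intact males kept an adjusted p under 0.1 in 18 of 19 alternatives (log2 fold change 0.21 to 0.29, adjusted p 0.00284 to 0.137), RT1-S3 in OVX against intact females in 18 of 21 (0.63 to 0.86, 3.91e-06 to 0.181) and RT1-A2 between intact males and females in 11 of 20 (-1.65 to -0.94, 0.00778 to 0.388), all with unchanged direction.

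The count of members called in males was 1, and 4 with library class as a term, 3 with short-class libraries alone and 1 to 3 on leaving out 1 rat. In females it was 1, and 4 with DESeq2, 2 with the exact test and 0 to 2 on leaving out 1 rat. Between intact males and females it was 1, and 0 to 2 on leaving out 1 rat. With short-class libraries alone the member called was Cd74 (-0.80, adjusted p 0.0181), with 34 of 15130 genes called. In GDX males against OVX females the count of members was 0, and 2 with DESeq2 and 2 with the exact test. For library class it was 0, with 1 of 15147 genes called, and 1 with no filter (Cd74), with 210 of 23561 genes called. For the interaction it was 0 throughout. Cd74 between intact males and females, uncalled at -0.03, had estimates from -0.25 to 0.12 on leaving out 1 rat. The cause was not tested.

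Rats of different groups share a replicate number. Rats with the same number did not deviate together (correlations -0.114 to 0.0626). The labels do not say whether a number marks rats handled together, and these correlations cannot decide it. With a replicate block the count in females was 0 (RT1-S3 0.68, adjusted p 0.181). Over all genes 0 of 14910 were called in that fit, so Bst2, Kdr and Cd93 were not called either. The block moved no other count of members.

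Each group held 5 or 6 rats, library class was short in all gonadectomized rats, and 15 of 38 members had too few counts to pass the filter in any of the 6 fits.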
